A study of Mus musculus with 14 samples.

Results

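Axl and Mertk are receptor tyrosine kinases that let macrophages recognise and take up apoptotic cells, and they are described here with their ligands Gas6 and Pros1, the bridging protein Mfge8 and the scavenger receptors Stab1, Msr1 and Marco. These 8 genes were taken by name from a table of 24556 mouse genes, and all 8 were present. RNA had been sequenced from cells isolated for the macrophage surface antigen F4/80 with magnetic beads over a pair of columns, from tumours that 4T1 cells had formed in the mammary fat pad of Balb/c mice. 4T1 is a mouse mammary carcinoma line. Before injection the tumour cells, not the mice, had been cultured for 5 days with 5 µM GSK269962A, a kinase inhibitor, or with the vehicle DMSO. The groups were GSK day 14 (4 libraries), DMSO day 14 (4 libraries), GSK day 8 (3 libraries) and DMSO day 8 (3 libraries), where the day counts from injection, and 14 libraries were compared in all. All tumours came from the same line, and neither the mouse behind each library nor age and sex are given in the labels, so p-values measure the spread between these libraries, part of which may be technical.

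Dying cells expose phosphatidylserine, a membrane lipid that healthy cells keep on the inner leaflet. Gas6 and protein S, the product of Pros1, bind this lipid at one end and receptors of the TAM family (Tyro3, Axl and Mertk) at the other, while Mfge8 links the lipid to integrins. Mertk is known as the TAM receptor of resting tissue macrophages and Axl as one that inflammatory signals induce. Stab1 binds phosphatidylserine directly, and Msr1 and Marco are class A scavenger receptors for modified lipoproteins, microbes and cell debris.

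Values are on the authors' log2 expression scale, and a difference of 1 is read here as a 2-fold change. The transformation behind the values is not given, so folds, unlogged values and levels per kilobase hold only if it is a plain log2. That is in doubt, because some low genes sat at nearly constant levels that differed by gene. Elane, for example, had -2.06 to -2.05 and Cd3g -0.08 to 0.07 over all libraries. The depth of the libraries is not known, since the values are not counts. Library correlations over all kept genes were 0.967 to 0.993 within groups (18 pairs) and 0.933 to 0.990 between groups (73 pairs). The fractions carried macrophage RNA: all 16 pan-macrophage markers were kept by the filter on low values, with library means from 11.51 to 12.18. Markers of 4T1 epithelium (12 of 14 kept), endothelium (12 of 12) and fibroblasts (10 of 14) were present at lower means of 4.60 to 6.74. Those of neutrophils (5 of 12 kept), dendritic cells (6 of 12) and B and plasma cells (4 of 10) had means of 4.88 to 6.76. T and NK cell markers (3 of 14) had 4.38 to 4.88. A pair of ribosomal RNA genes also split the libraries. AY036118 was the higher in 9 libraries (all 4 GSK day 14, 2 DMSO day 14, 2 GSK day 8 and 1 DMSO day 8), and Gm42418 in the other 5. In such fractions, fewer cells of a type and less RNA per cell cannot be told apart.

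The members ran from some of the most abundant transcripts of these fractions to 1 that was below the filter on low values. Per kilobase of exon, the mean log2 level over 14 libraries was highest for Msr1 (9.32, range 9.06 to 9.65). Stab1 followed at 8.504 (8.01 to 8.86), Axl at 8.48 (7.26 to 9.26) and Mertk at 8.16 (7.98 to 8.33), so the ranges of these 3 receptors overlapped each other, and that of Axl reached into the range of Msr1. Of the ligands, Gas6 had 7.24 (5.60 to 7.81), Mfge8 5.62 (5.04 to 6.57) and Pros1 4.68 (4.19 to 5.19). Gas6 and Mfge8 overlapped over libraries, as did Mfge8 and Pros1. Marco, at 1.31 (1.13 to 1.79), lay below all the others. On the scale without length, Marco had an unlogged value from 4.23 to 6.64, under the minimum of 10 in all 14 libraries, so it was not tested and 7 members were.

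Axl (ENSMUSG00000002602) lies on the minus strand of chromosome 7, 25757273 to 25788705, and Mertk (ENSMUSG00000014361) on the plus strand of chromosome 2, 128698956 to 128802894, in GRCm38. The 250 bases before the start of each gene, from RefSeq's GRCm38.p6, are shown because Axl and Mertk are the receptors that the comparisons turn on. Capitals mark matches on either strand to the GC box GGGCGG, which Sp1 family factors bind, and to the purine-rich PU box GAGGAA, a core bound by the macrophage factor PU.1; the runs are written 5′ to 3′ on the strand of the gene.
Axl, chr7:25788734-25788983, minus strand: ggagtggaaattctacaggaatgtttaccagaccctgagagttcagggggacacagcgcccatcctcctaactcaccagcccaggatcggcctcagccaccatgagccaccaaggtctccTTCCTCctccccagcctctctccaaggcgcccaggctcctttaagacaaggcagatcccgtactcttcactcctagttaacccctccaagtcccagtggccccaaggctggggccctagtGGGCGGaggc
Mertk, chr2:128698665-128698914, plus strand: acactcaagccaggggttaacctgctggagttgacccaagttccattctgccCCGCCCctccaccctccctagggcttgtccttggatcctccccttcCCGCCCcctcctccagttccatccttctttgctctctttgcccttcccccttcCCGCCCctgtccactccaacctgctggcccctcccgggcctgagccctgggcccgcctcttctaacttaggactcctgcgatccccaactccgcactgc
The Axl window held 1 GC box and 1 PU box at 60.0% G and C. The Mertk window held 3 GC boxes and no PU box at 63.6%. Of 32851 promoters of this length 32.7% held a GC box and 23.3% a PU box. Neither window held the AP-1 site TGANTCA, which 6.75% of promoters held. These are letter matches and not sites of binding. A promoter entry was matched for 7 of the 8 members, all but Msr1.

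Tumour age asks which members differ between macrophages of older and younger tumours. Averaged over both pre-treatments, 2 of 7 tested members passed in limma, Axl higher and Mfge8 lower on day 14, where 12.3% of all 11886 tested genes passed (5.31% higher and 7.03% lower). Axl was 2.01-fold higher on day 14 than on day 8, a log2 change of 1.01 (SE 0.155, adjusted p = 0.00125, limma). This average was added after the values had been seen. The median change of the 7 members was 0.10, beside 0.01 over all tested genes.

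In GSK tumours, Axl had 11.51, 11.30, 11.34 and 11.56 on day 14, against 10.74, 10.47 and 10.38 on day 8. In DMSO tumours, it had 11.59, 10.84, 11.05 and 10.74 on day 14, against 9.73, 10.51 and 9.59 on day 8. Every day 14 library was above every day 8 library of the same pre-treatment, and across pre-treatments the lowest day 14 value and the highest day 8 value nearly met. Within GSK tumours the log2 change was 0.90 (SE 0.219, 1.87-fold, adjusted p = 0.0269, limma), and Axl was the 1 member that passed, where 7.01% of all genes passed (3.05% higher). Within DMSO tumours it was 1.11 (SE 0.219, 2.16-fold, adjusted p = 0.0324, limma), again the 1 member that passed, where 0.824% of all genes passed (0.303% higher). Groups without overlap were found for 3 of 7 members in GSK tumours and 2 of 7 in DMSO tumours, where 30.3% and 10.1% of all genes had none.

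**Figure D1:**
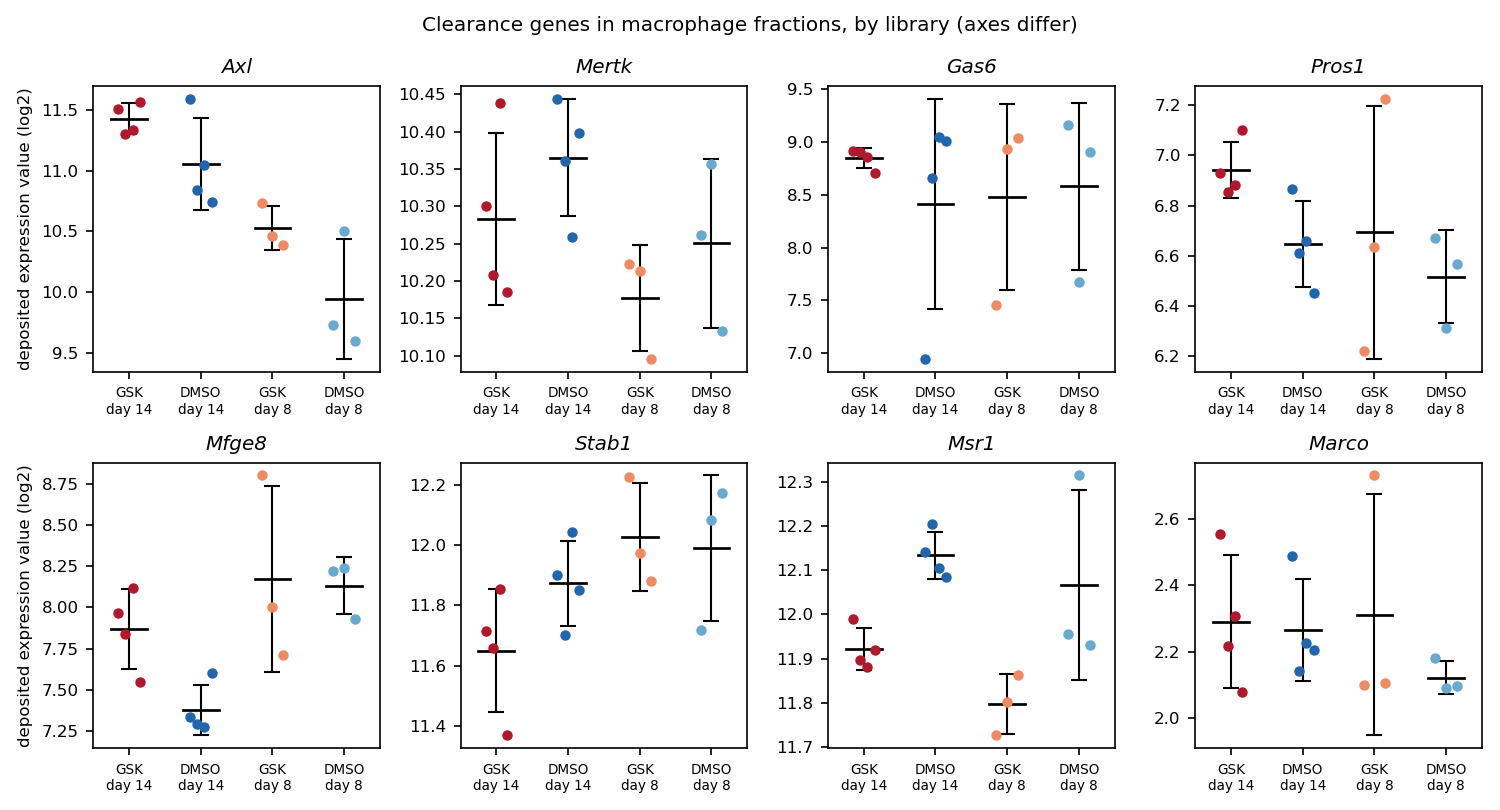
Deposited log2 expression of the 8 clearance genes in each library (points), with the group mean (line) and SD (bars); n = 4 on day 14 and 3 on day 8, and each panel has its own y axis. Axl on day 14 lies above day 8 of the same pre-treatment, Mertk spans 0.35 in all, and Gas6 has 1 low library in each of 3 groups.

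The direction of the Axl difference by age held in every setting run, and the average passed without each of the 14 libraries in turn (adjusted p 0.000398 to 0.00496). Within single pre-treatments the calls were less firm. In DMSO tumours the call was lost without DMSO day 8 library 1 (adjusted p = 0.107) or 3 (0.0976), DMSO day 14 library 3 (0.0716), or GSK day 14 library 1 (0.0526), 2 (0.0526) or 3 (0.0513), the GSK libraries entering through the shared variance. In GSK tumours it was lost without GSK day 8 library 1 (0.0664) or 2 (0.0762) and without GSK day 14 library 1 (0.0681) or 4 (0.0908). Among libraries with AY036118 higher, Axl was higher on day 14 by 1.00 in GSK tumours, by 0.81 in DMSO tumours and by 0.91 on average. That set held a single DMSO day 8 library, library 2, which had the highest Axl of its group. Among libraries with Gm42418 higher, which had no GSK day 14 library and 1 GSK day 8 library, Axl was higher by 1.13 in DMSO tumours.

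Markers of other cells moved with tumour age, and their levels stand beside the Axl result. Of the 4T1 epithelium markers 8 of 12 were lower on day 14 and 0 higher, and the log2 of their summed level was 10.31 to 10.77 in GSK day 14, 10.42 to 11.05 in DMSO day 14, 10.86 to 11.96 in GSK day 8 and 11.22 to 11.57 in DMSO day 8 libraries. Of endothelial markers 6 of 12 were lower (summed level 10.26 to 10.51, 10.37 to 10.87, 10.74 to 11.57 and 11.19 to 11.55 in the same order), and of fibroblast markers 3 of 10 (8.44 to 9.05, 8.24 to 8.82, 8.85 to 9.64 and 8.84 to 9.33). Dendritic cell markers were lower in 2 of 6 (8.79 to 9.15, 9.19 to 9.71, 9.82 to 10.49 and 9.96 to 10.415) and higher in 0. B and plasma cell markers were higher in 2 of 4 and lower in 0. Of neutrophil markers 1 of 5 was higher and 1 lower, and of T and NK cell markers 0 of 3 passed. Of pan-macrophage markers 6 of 16 were higher and 0 lower, and their list mean was 12.09, 11.86, 11.72 and 11.73 in the same order. Their summed levels were 17.22 to 17.56, 17.42 to 18.07, 17.36 to 17.67 and 17.69 to 17.90. The mean was thus highest in GSK day 14 and the sum was not. Each sum is weighted to the most abundant gene of its list. By mean over all libraries these were Cdh1 for epithelium (10.35, next Krt18 8.05) and Pecam1 for endothelium (10.15, next Kdr 7.76). For fibroblasts it was Sparc (7.44, next Col1a1 5.86) and for macrophages C1qa (16.53, next C1qb 14.77). The sums are thus not measures of how many cells of a type were carried. The fibroblast markers Dcn, Lum, Pdgfra and Thy1 were below the filter, with means of 1.05 to 2.59. With the epithelium mean of each library as a covariate Axl was 0.92 higher on day 14 (adjusted p = 0.774), with the fibroblast mean 1.19 (0.175), with the endothelium mean 1.16 (0.134) and with the pan-macrophage mean 0.90 (0.131, limma). The SE in these fits was 0.304, 0.281, 0.263 and 0.229, against 0.155 without a covariate. The number of genes that passed was 1, 10, 13 and 31, against 1466 without a covariate. These marker means differed with tumour age, so age and the mix of cells cannot be told apart here.

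**Figure D2:**
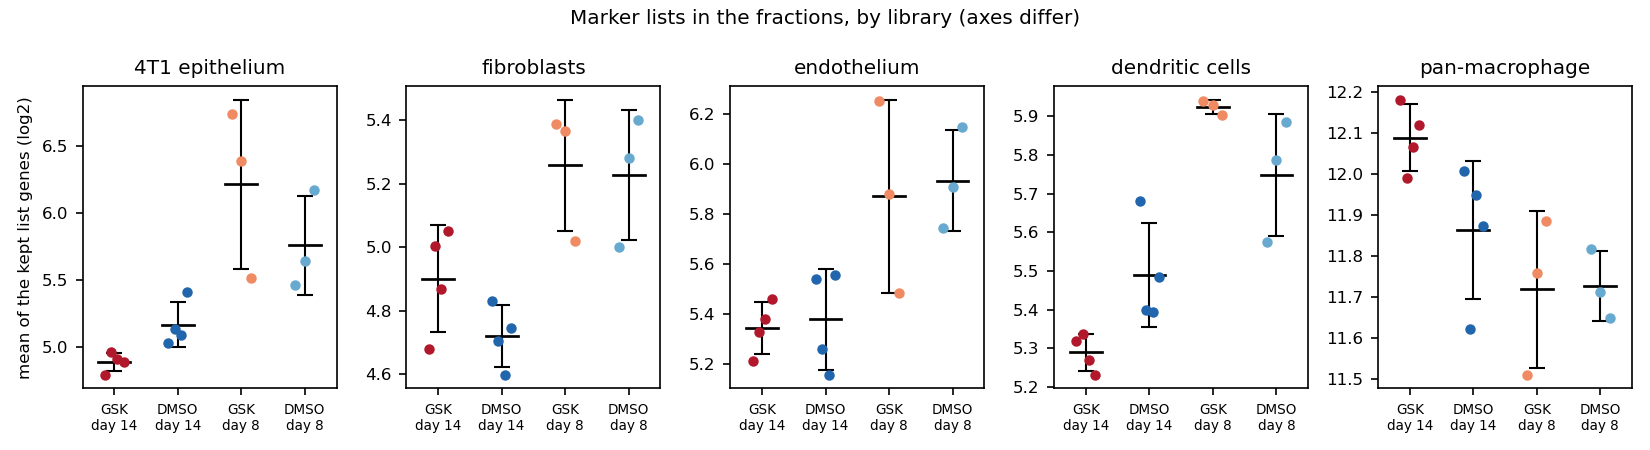
Mean log2 level of the kept genes of 5 marker lists in each library (points), with group mean (line) and SD (bars); n = 4 on day 14 and 3 on day 8. The epithelium, endothelium and dendritic cell means are lower in most day 14 libraries, and the pan-macrophage mean is highest in GSK day 14.

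Mertk was among the steadiest of the kept genes within groups. It had 10.30, 10.21, 10.44 and 10.19 in GSK day 14 libraries, against 10.44, 10.36, 10.26 and 10.40 in DMSO day 14 libraries. On day 8 it had 10.22, 10.21 and 10.10 in GSK and 10.26, 10.36 and 10.13 in DMSO libraries. The groups overlapped in each of the 4 comparisons of pre-treatment or age. Its SD within groups was 0.0966, and 0.631% of kept genes had one no larger. Its log2 change by age was 0.11 in GSK tumours (95% interval -0.14 to 0.36) and 0.11 in DMSO tumours (-0.13 to 0.36), and by pre-treatment it was -0.08 on day 14 (-0.31 to 0.15) and -0.07 on day 8 (-0.34 to 0.19). None passed in limma (adjusted p from 0.616 to 0.815). The small negative difference on day 14 turned to 0.04 under quantile normalisation.

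On the scale without length, Axl exceeded Mertk in 12 of 14 libraries, all but DMSO day 8 libraries 1 and 3. Axl has more exon, 5033 bases against 4336 for Mertk. Per kilobase, the DMSO day 8 library with the highest Axl of its group had 8.17 for Axl and 8.24 for Mertk. Per kilobase Mertk was thus the higher in every DMSO day 8 library. The Axl minus Mertk values below are without length. Exon length shifts them alike in all libraries, so differences between groups are unchanged. Within a library Axl minus Mertk does not depend on the scaling of that library. It averaged 1.15 ± 0.20 in GSK day 14 and 0.69 ± 0.36 in DMSO day 14 libraries (SD, n = 4 each), and 0.35 ± 0.14 in GSK day 8 and -0.31 ± 0.40 in DMSO day 8 libraries (SD, n = 3 each). Every day 14 library was above every day 8 library of its pre-treatment, and likewise GSK day 8 was above DMSO day 8, while the day 14 groups overlapped. The difference by age was 0.79 in GSK and 1.00 in DMSO tumours, each with p = 0.0571, the smallest that an exact permutation test of 4 against 3 allows. The difference by pre-treatment was 0.46 on day 14 (exact permutation p = 0.0857, smallest possible 0.0286) and 0.66 on day 8 (exact permutation p = 0.1, the smallest possible). Adjusted over 8 two-sided tests, all 4 exact permutation tests gave 0.2, so none passed.

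Pre-treatment asks whether macrophages differ between tumours of GSK-treated and of DMSO-treated cells. Averaged over both days, 1 of 7 members passed, Axl higher in GSK tumours, where 14.5% of all genes passed (6.73% higher). On day 14 the values of Axl given above had a mean of 11.43 ± 0.13 in GSK and 11.06 ± 0.38 in DMSO libraries (SD, n = 4 each). On day 8 the mean was 10.53 ± 0.18 in GSK and 9.94 ± 0.49 in DMSO libraries (SD, n = 3 each). On both days 1 DMSO library, library 1 on day 14 and library 2 on day 8, reached into or above the GSK range, so the groups overlapped. The log2 difference was 0.37 on day 14 (SE 0.203, adjusted p = 0.249), 0.59 on day 8 (SE 0.234, adjusted p = 0.235) and 0.48 on average (SE 0.155, 1.39-fold, adjusted p = 0.0482, limma). The 4 groups thus stood in the order GSK day 14, DMSO day 14, GSK day 8 and DMSO day 8 by mean, with overlap between GSK and DMSO on each day.

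The averaged Axl difference by pre-treatment was near the threshold and did not hold within 1 kind of library. It passed without DMSO day 8 library 2 (adjusted p = 0.00944) or DMSO day 14 library 1 (0.0152) and did not pass without any of the other 12, where the adjusted p was 0.0595 to 0.111. Among libraries with AY036118 higher it was 0.01, with -0.08 on day 8 and 0.11 on day 14. That set held a single DMSO day 8 library, library 2, which had the highest Axl of its group. It held 2 DMSO day 14 libraries, and 1 of them, library 1, had the highest Axl of its group. Among libraries with Gm42418 higher the day 8 difference was 1.08, from a single GSK library. With a term in the model for the split by ribosomal RNA the averaged Axl difference was 0.32 (adjusted p = 0.223, limma). Of pan-macrophage markers 3 of 16 were higher and 2 lower in GSK tumours on average, and with their mean as a covariate the Axl difference was 0.43 (adjusted p = 0.139).

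**Figure D3:**
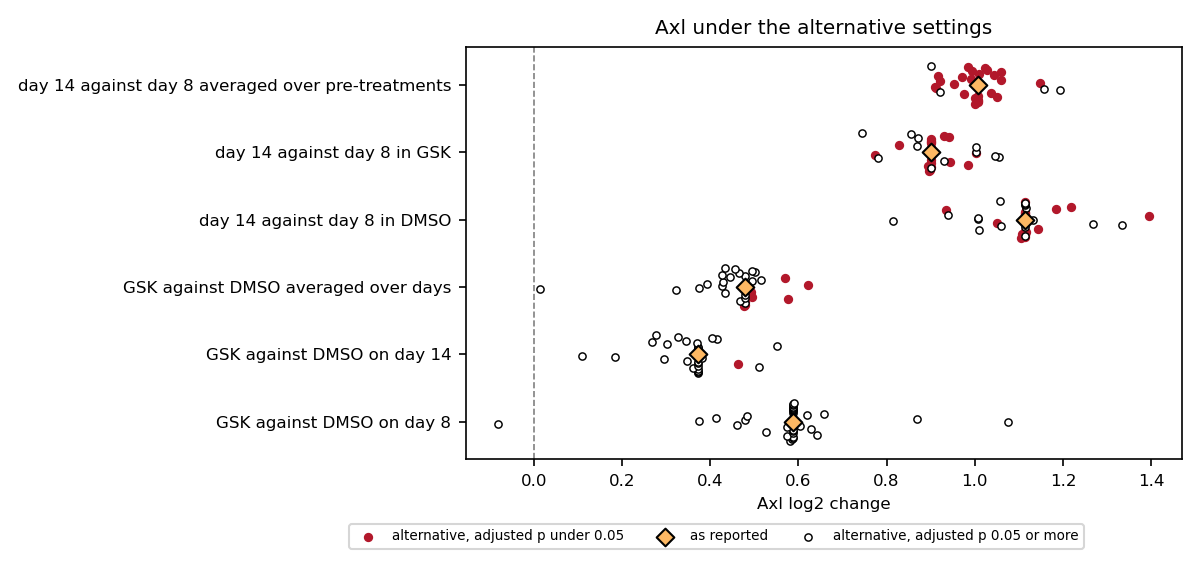
Log2 change of Axl (x axis) in 6 comparisons (rows) as reported (diamonds) and under every other setting (points, filled where the adjusted p is under 0.05); all changes by age are above 0.7, and changes by pre-treatment run from -0.08 to 1.08.

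On neither day alone did a member pass by pre-treatment: 0 of 7 on day 14, where 10.8% of all genes passed, and 0 of 7 on day 8, where 0.194% did (limma, with 1 member at an unadjusted p under 0.05 on each day, beside 27.3% and 16.3% of all genes). Groups did not overlap for 1 of 7 members on each day, Msr1, where 22% of all genes on day 14 and 16.2% on day 8 did not overlap. The effects of pre-treatment on day 14 and on day 8 were also compared directly. The difference between them passed for 0 of 7 members (adjusted p from 0.687 to 0.988, limma, none at an unadjusted p under 0.05), where 0.00841% of all genes passed and 8.3% had an unadjusted p under 0.05. For Axl it was -0.21 (95% interval -0.87 to 0.44), so a difference of either sign is within the interval.

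**Figure D4:**
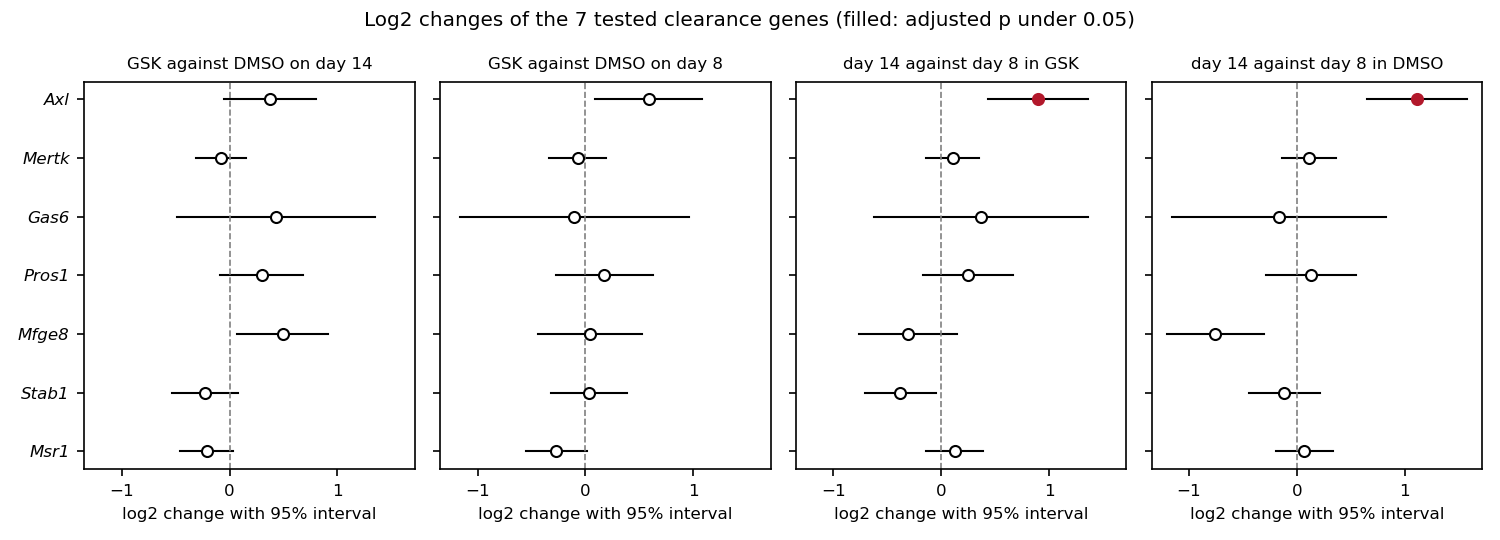
Log2 change (points) with 95% interval (lines) of the 7 tested members in the 4 comparisons of single groups; filled points have an adjusted p under 0.05. Axl by age is filled in GSK (0.90) and DMSO (1.11), and the intervals of Gas6 are the widest.

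Gas6, the ligand of highest affinity for Axl, lies on the minus strand of chromosome 8, 13465374 to 13494490 (ENSMUSG00000031451). It had 8.91, 8.90, 8.86 and 8.70 in GSK day 14 libraries, against 6.95, 8.66, 9.04 and 9.005 in DMSO day 14 libraries. On day 8 it had 7.46, 8.93 and 9.04 in GSK and 9.16, 7.68 and 8.91 in DMSO libraries. Within each of 3 groups 1 library was low, and these 3 had 6.95 to 7.68 while the other 11 had 8.66 to 9.16. The group differences in Gas6 were smaller than this spread: 0.43 by pre-treatment on day 14 (SE 0.434, adjusted p = 0.566) and -0.10 on day 8 (SE 0.501, adjusted p = 0.939), 0.37 by age in GSK tumours (SE 0.469, adjusted p = 0.668) and -0.17 in DMSO tumours (SE 0.469, adjusted p = 0.897, limma). Without DMSO day 14 library 1 the day 14 difference was -0.06. Without GSK day 8 library 1 the day 8 difference was 0.40.

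The 3 libraries with little Gas6 were also low in the genes picked for their likeness to Gas6. The genes most like Gas6 over 14 libraries were the chemokine gene Ccl7, the proteasome gene Sem1 and the mannose receptor gene Mrc1. Ccl7 had 8.06 to 8.30 in the 3 libraries, against 9.58 to 10.004 in the other 11. Sem1 had 8.58 to 9.26 in the 3, against 9.88 to 10.53, and Mrc1 had 11.48 to 12.40 in the 3, against 12.81 to 13.94. None of these ranges overlapped, and over the 11 others alone the Pearson correlation with Gas6 was 0.60 for Ccl7, 0.43 for Sem1 and 0.72 for Mrc1. Because these genes were picked by correlation over the same 14 libraries, their separation follows in part from the choice. How many of all genes separate the same libraries was not counted. In each of the 3 groups the library with the lowest Gas6 was also the one with the highest Axl and the highest Mertk of its group. Of these 3 libraries, 2 had AY036118 higher and 1 Gm42418. On the other strand the protein-coding gene Tmem255b overlaps Gas6, and whether reads were counted by strand is not given in the sources used here. Tmem255b was not found by symbol among the genes measured, so its level cannot be given and its part was not tested.

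**Figure D5:**
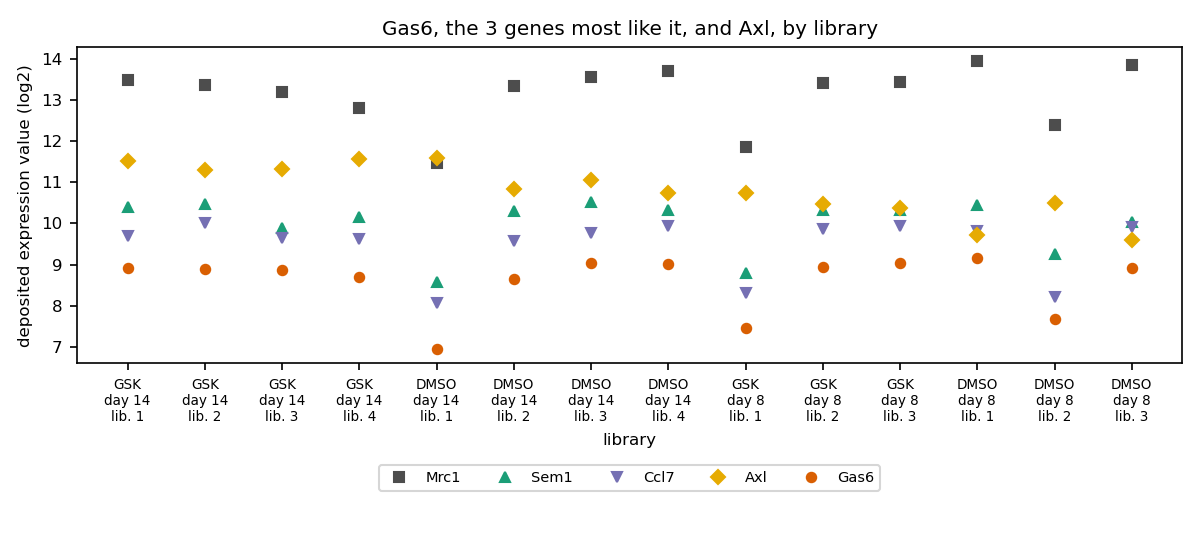
Deposited log2 expression (y axis) of Gas6, of the 3 genes most like it and of Axl in each of the 14 libraries (x axis). Gas6, Ccl7, Sem1 and Mrc1 are low together in DMSO day 14 library 1, GSK day 8 library 1 and DMSO day 8 library 2, where Axl is at the top of its group.

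Pros1 encodes protein S, a plasma anticoagulant and the other main TAM ligand, and lies on the plus strand of chromosome 16, 62854307 to 62929346 (ENSMUSG00000022912). It had 6.93, 6.86, 6.88 and 7.10 in GSK day 14 libraries, against 6.87, 6.61, 6.66 and 6.45 in DMSO day 14 libraries. On day 8 it had 6.22, 6.64 and 7.22 in GSK and 6.67, 6.31 and 6.57 in DMSO libraries. The groups overlapped in each of the 4 comparisons of pre-treatment or age, on day 14 by the narrow margin between 6.86 and 6.87. Its difference by pre-treatment was 0.30 on day 14 (SE 0.183, adjusted p = 0.317) and 0.18 on day 8 (SE 0.211, adjusted p = 0.719), and by age it was 0.25 in GSK tumours and 0.13 in DMSO tumours (limma adjusted p = 0.464 and 0.801).

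Gas6 exceeded Pros1 in every library. Gas6 minus Pros1 averaged 1.90 ± 0.20 in GSK day 14 and 1.77 ± 1.14 in DMSO day 14 libraries (SD, n = 4 each). It averaged 1.78 ± 0.53 in GSK day 8 and 2.06 ± 0.61 in DMSO day 8 libraries (SD, n = 3 each). The smallest value, 0.08, was that of DMSO day 14 library 1. The difference was 0.14 by pre-treatment on day 14 and -0.28 on day 8, and 0.12 by age in GSK tumours and -0.30 in DMSO tumours, with an adjusted exact permutation p of 0.8 to 0.971 over the 8 two-sided tests.

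Mfge8, which bridges phosphatidylserine to integrins, lies on the minus strand of chromosome 7, 79133768 to 79149060 (ENSMUSG00000030605). Averaged over pre-treatments it was lower on day 14. In GSK tumours it had 7.96, 7.84, 8.12 and 7.55 on day 14, against 8.80, 8.00 and 7.71 on day 8. In DMSO tumours it had 7.33, 7.29, 7.28 and 7.60 on day 14, against 8.22, 8.24 and 7.93 on day 8. The DMSO groups did not overlap and the GSK groups did. Averaged over pre-treatments the log2 change was -0.53 (SE 0.151, 1.44-fold lower, adjusted p = 0.0338, limma). It was -0.76 in DMSO tumours (SE 0.214, adjusted p = 0.105) and -0.30 in GSK tumours (SE 0.214, adjusted p = 0.403, limma), neither past the threshold.

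The averaged change of Mfge8 did not pass without DMSO day 8 library 1 (adjusted p = 0.0582) or 2 (0.0559), GSK day 8 library 1 (0.0811), DMSO day 14 library 2 (0.0506) or 3 (0.0652), or GSK day 14 library 1 (0.0512), 2 (0.0574) or 4 (0.0746, limma). With the epithelium mean as a covariate, whose markers are lower on day 14 as given above, it was -0.07 (adjusted p = 0.978), and with the endothelium mean -0.14 (adjusted p = 0.881). By pre-treatment Mfge8 was 0.49 higher in GSK tumours on day 14 (SE 0.198, adjusted p = 0.119), with overlap at the values 7.55 in GSK and 7.60 in DMSO, and 0.04 on day 8 (SE 0.229, adjusted p = 0.947, limma). The day 14 difference passed in 4 of 31 alternatives. Among them were a fit of only the day 14 groups (adjusted p = 0.0391) and that without GSK day 8 library 1 (adjusted p = 0.0372, limma). Of all genes 15.8% and 13.7% passed in these fits, against 10.8% as reported.

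Stab1 encodes stabilin-1, a scavenger and phosphatidylserine receptor of tissue macrophages, and lies on the minus strand of chromosome 14, 31139013 to 31168641 (ENSMUSG00000042286). In GSK tumours it had 11.71, 11.66, 11.86 and 11.37 on day 14, against 12.23, 11.97 and 11.88 on day 8. In DMSO tumours it had 11.90, 11.70, 12.04 and 11.85 on day 14, against 11.72, 12.08 and 12.17 on day 8. The GSK groups did not overlap, by the margin between 11.86 and 11.88, and the DMSO groups did. The log2 change by age was -0.38 in GSK tumours (SE 0.156, adjusted p = 0.143) and -0.12 in DMSO tumours (SE 0.156, adjusted p = 0.765), and by pre-treatment -0.22 on day 14 (adjusted p = 0.339) and 0.04 on day 8 (adjusted p = 0.936, limma). Nt5dc2 overlaps Stab1 on the other strand, at 6.75 to 8.28, below the 11.37 to 12.23 of Stab1.

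Msr1, the scavenger receptor CD204 of tumour macrophages, lies on the minus strand of chromosome 8, 39581685 to 39642673 (ENSMUSG00000025044). It had 11.99, 11.90, 11.88 and 11.92 in GSK day 14 libraries, against 12.14, 12.21, 12.11 and 12.08 in DMSO day 14 libraries. On day 8 it had 11.73, 11.80 and 11.86 in GSK and 11.96, 12.31 and 11.93 in DMSO libraries. Every GSK library was below every DMSO library of the same day, and the differences were small. The log2 difference was -0.21 on day 14 (SE 0.115, adjusted p = 0.249), -0.27 on day 8 (SE 0.133, adjusted p = 0.329) and -0.24 on average (SE 0.088, 1.18-fold lower, adjusted p = 0.0753, limma), so none passed. With library quality weights the average passed at -0.23 (adjusted p = 0.0394, limma). Among libraries with AY036118 higher, which held 1 DMSO day 8 library, the average was -0.34. By age Msr1 differed by 0.12 in GSK tumours (adjusted p = 0.571), where the groups did not overlap, and by 0.07 in DMSO tumours (adjusted p = 0.840, limma).

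Marco, a scavenger receptor best known from alveolar and marginal zone macrophages, lies on the minus strand of chromosome 1, 120474538 to 120505024 (ENSMUSG00000026390). It had log2 values of 2.56, 2.22, 2.31 and 2.08 in GSK day 14 libraries, against 2.49, 2.14, 2.23 and 2.20 in DMSO day 14 libraries. On day 8 it had 2.10, 2.73 and 2.10 in GSK and 2.18, 2.09 and 2.10 in DMSO libraries. All groups overlapped, and 44.9% of all genes in the table had a mean no higher. Of the sequence of the members, 0 of the 31-base words of Axl, Mertk, Pros1, Mfge8 and Marco were shared with other genes, and 0.278% of those of Gas6, 1.66% of Stab1 and 0.0625% of Msr1.

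Other genes of apoptotic cell clearance passed by pre-treatment on day 14 while no member did. Of 17 tested receptors and bridging proteins outside the members, 1 was higher and 5 were lower in GSK tumours, where 5.1% of all genes were higher and 5.73% lower (median change -0.12, beside 0.02 over all tested genes). Without the filter on low values 0 were higher and 3 lower. Lower were Cd93, a receptor of myeloid and endothelial cells (-0.97, SE 0.139, adjusted p = 0.00233), the complement gene C1qa (-0.85), the inhibitory receptor gene Cd300a (-0.68), the calreticulin and lipoprotein receptor gene Lrp1 (-0.58) and Cd300lf, a phosphatidylserine receptor gene (-0.44). Higher was Anxa5, the phosphatidylserine-binding annexin (0.50, SE 0.152, adjusted p = 0.0455). Of 9 other scavenger receptors 1 was higher, Cd68 (1.04). Of 17 genes of the engulfment machinery 2 were higher, among them Elmo1 (0.62), and 1 was lower, the small GTPase gene Rhoa (-0.74, SE 0.134, adjusted p = 0.00608). Of 5 genes of receptor shedding, by which Axl and Mertk are cut from the surface, the protease gene Adam10 was higher (0.81, SE 0.242, adjusted p = 0.0427) and Rhbdf2, whose product guides the protease ADAM17 to the surface, lower (-0.49, limma). Of 12 nuclear receptor and response genes the cholesterol exporter Abca1 was higher (0.54) and the liver X receptor gene Nr1h3, known in mice to drive Mertk, lower (-0.62), while Mertk differed by -0.08. In the list of inhibitory signals Lilrb4a was higher (1.40), 1 of 6, and among 11 genes of LC3-associated phagocytosis Atg12 was higher (0.71) and Becn1 lower (-0.47). On day 8 none of these lists held a gene that passed (limma, 23 of all genes passed and 1939 had an unadjusted p under 0.05). Of pan-macrophage markers 5 of 16 were higher and 3 lower in GSK tumours on day 14, and with their mean as a covariate 16 of all genes passed there, against 1287 without it. With a term for the split by ribosomal RNA 362 did, and the genes named here are not given under that term.

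By age, averaged over pre-treatments, 6 of the 17 other receptors and bridging proteins were higher on day 14 and 1 was lower, where 5.31% of all genes were higher and 7.03% lower (median change 0.21, beside 0.01 over all genes). Without the filter on low values 2 were higher and 1 lower. Higher were Cd300lb (0.77), C1qb (0.50), the integrin gene Itgb5 (0.41), Anxa5 (0.40), Trem2 (0.38) and C1qc (0.34), and lower was the integrin gene Itgb3 (-0.90), whose product is a partner of Mfge8. Of 9 other scavenger receptors the haemoglobin receptor gene Cd163 was lower (-1.33, SE 0.167, adjusted p = 0.00042) and Colec12 higher (0.40). The shedding proteases Adam10 (0.83) and Adam17 (0.44) were higher and their inhibitor gene Timp3 lower (-1.22, SE 0.235, adjusted p = 0.005, limma), which is 3 of 5. Without the filter on low values 1 of these 5 was higher and 1 lower. The lists of cell markers that moved with age, given above, moved with these genes too, and their part in these changes was not tested.

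Genes whose pattern over the 14 libraries was most like that of a member were found by Pearson correlation, as a description, since all points share the 4 groups. For Axl they were Tmem176b (0.949, or 0.720 after group means were removed), the fractalkine receptor gene Cx3cr1 (0.945, 0.844 within groups) and Mapkap1 (0.938, 0.868 within groups). For Mertk they were the kinase gene Btk (0.860), Tmem220 (0.816) and Treml2 (0.815). For Pros1 they were Adss (0.894), Tbl1x and Mpc2 (0.880 each), and for Mfge8 Polr3c (0.861), Agk (0.850) and Pitpnm2 (0.835). For Stab1 they were Hras (0.934), Dpp7 (0.930) and Dcxr (0.911), and for Msr1 Hsd17b11 (0.893), Kpnb1 (0.870) and Tgfb1 (0.870). Cx3cr1, a receptor of monocyte-derived and resident macrophages, had 8.68, 8.02, 8.45 and 8.74 in GSK day 14 libraries and 8.35, 8.08, 7.91 and 7.67 in DMSO day 14 libraries. On day 8 it had 7.50, 7.47 and 6.99 in GSK and 6.64, 7.77 and 6.80 in DMSO libraries, so that, as for Axl, DMSO day 8 library 2 was the highest of its group. Between Axl and Mertk themselves the correlation was 0.427 over 14 libraries and 0.431 within groups.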

How the data were processed

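Per the submitters' processing notes, the tools were RSEM 1.2.29, Bowtie2 and DESeq2 1.12.4 and the builds mm10 and GRCh38, with no roles given. The deposited file holds log2 values normalised by the authors, 1 column per library, and the transformation is not given in the sources used here. The values are not counts, so depth is unknown and no counting interval is given; such scaling sets changes relative to the other genes of a library.

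Genes with an unlogged value of at least 10 in at least 3 of 14 libraries were kept (11886 of 24556; 86 identifiers matched no symbol). limma 3.58.1 in R 4.3.3 fitted 4 group means with a variance trend to all libraries, with two-sided tests, Benjamini-Hochberg adjustment over all kept genes and a threshold of 0.05. The fit was also run on simulated data as a self-test, whose outcome is not given here and does not bear on the error rate of these calls. Differences between 2 genes in a library were tested by exact permutation (SciPy 1.17.1). Alternatives were pseudocounts of 10 and 1, no filter or a minimum of 50, unweighted TMM factors, quantile normalisation, no trend, quality weights, the replicate block, only the groups compared, marker means as covariates, the ribosomal RNA split and leaving out libraries.

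Every member is named, with the 3 genes of highest Pearson correlation with each, and of each list up to 6 genes past the threshold, except 1 that is not reported here. The members and lists were chosen with earlier results of these data known. Levels per kilobase used exon length from GENCODE M21 (GRCm38), as did coordinates; promoters came from RefSeq.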

Additional observations from a re-analysis of the deposited data

Results flagged for a closer look

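In GSK day 14, Gas6 minus Pros1 was 1.60 in library 4, against 1.98, 2.05 and 1.98 in libraries 1, 2 and 3, so 1 sample stood apart from the others of its group. The gap to the nearest value was 0.837 of the range of the group, beside Dixon's critical value of 0.829 for 4 samples. In that library Gas6 was 8.70 and Pros1 7.10, the lowest and the highest of the group. Of 20 such comparisons of members in groups of 4 libraries, 1 passed, and chance gives about 1 in 20.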

How the results depend on the processing

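Over 1512 alternative values of members, 1331 kept direction and side of the threshold, 101 changed sign, 70 lost a call, and 10 gained one. The values below are log2 changes or counts of members that passed, and where no cause is shown the cause was not tested. The change of Axl by age averaged over pre-treatments passed in 26 of 30 alternatives, TMM and quantile scaling included, and its exceptions were the 4 marker covariates. Over all genes, without the filter 540 passed by pre-treatment on day 14 (1287 as reported) and 712 by age averaged (1466 as reported), and of the other receptors and bridging proteins 0 were higher and 3 lower by pre-treatment on day 14 and 2 higher and 1 lower by age. With quality weights 2373 passed by pre-treatment on day 14, with a ribosomal RNA term 362, and by age averaged 944 passed with that term and 737 with the block.

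Without the filter on low values 0 passed by pre-treatment averaged, by age in DMSO and by age in GSK and 1 passed by age averaged. Of all genes 3.87%, 0.122%, 1.05% and 2.9% passed there, in the same order. With TMM rescaling 0 passed by pre-treatment averaged, where 14.2% of all genes did. With quantile normalisation the changed signs were Mertk 0.045 by pre-treatment on day 14, Mertk 0.018 and Stab1 0.0037 by pre-treatment averaged, Mertk 0.053 for the difference of pre-treatment effects between days. Without the trend in limma 0 passed by pre-treatment averaged, where 14.3% of all genes did. With library quality weights 2 passed by pre-treatment on day 14, by pre-treatment averaged and by age in GSK, where 20%, 23.7% and 29.6% of all genes passed. With these weights 0 passed by age in DMSO and 1 by age averaged, where 0.16% and 16% of all genes passed. Changed signs with these weights were Gas6 0.37, Mfge8 -0.095 and Stab1 -0.10 by pre-treatment on day 8, Gas6 -0.19 for the difference of pre-treatment effects between days, Gas6 0.18 by age in DMSO, Gas6 -0.014 by age in GSK. With the replicate number as a block 0 passed by pre-treatment averaged and by age in GSK and 1 passed by age averaged. Of all genes 13%, 2.53% and 6.2% passed there, in the same order. Fitting only the groups compared 1 passed by pre-treatment on day 14 and 0 passed by age in DMSO, where 15.8% and 0.185% of all genes passed. With the epithelium mean as a covariate 0 passed by age in DMSO, by age in GSK and by age averaged. Of all genes 0.0252%, 0.00841% and 0.00841% passed there, in the same order. The epithelium covariate changed the signs of Gas6 0.089, Mfge8 -0.18 and Stab1 -0.089 by pre-treatment on day 8, Mertk 0.0057, Pros1 -0.33 and Msr1 -0.041 for the difference of pre-treatment effects between days, Pros1 -0.23, Stab1 0.049 and Msr1 -0.012 by age in DMSO, Gas6 -0.20, Pros1 -0.56, Mfge8 0.34 and Msr1 -0.053 by age in GSK, Gas6 -0.31, Pros1 -0.40, Stab1 0.020 and Msr1 -0.033 by age averaged. With the fibroblast mean 0 passed by pre-treatment averaged, by age in DMSO, by age in GSK and by age averaged. Of all genes 12%, 0%, 0.126% and 0.0841% passed there, in the same order. The fibroblast covariate changed the signs of Pros1 -0.22 and Stab1 0.020 by age in DMSO, Gas6 -0.39 by age in GSK, Gas6 -0.82 and Pros1 -0.11 by age averaged. With the endothelium mean 0 passed by age in DMSO, by age in GSK and by age averaged. Of all genes 0.0168%, 0.0337% and 0.109% passed there, in the same order. The endothelium covariate changed the signs of Pros1 -0.26, Stab1 0.061 and Msr1 -0.024 by age in DMSO, Gas6 -0.57, Pros1 -0.12 and Mfge8 0.071 by age in GSK, Gas6 -0.86 and Pros1 -0.19 by age averaged. With a term for the split by ribosomal RNA 0 passed by pre-treatment averaged and 1 by age averaged, where 5.29% and 7.94% of all genes passed. Among libraries with AY036118 higher 0 passed by age in DMSO and 1 passed by age averaged. Among these AY036118 libraries changed signs were Axl -0.080, Gas6 1.31, Mfge8 -0.38, Stab1 -0.15 and Gas6 minus Pros1 0.69 by pre-treatment on day 8, Axl 0.19, Mertk 0.13, Gas6 -0.46 and Pros1 -0.44 for the difference of pre-treatment effects between days, Mertk -0.0059, Gas6 0.32 and Msr1 -0.19 by age in DMSO, Gas6 -0.14, Mfge8 0.011 and Gas6 minus Pros1 -0.15 by age in GSK, Msr1 -0.051 by age averaged. Among libraries with Gm42418 higher 0 passed by age in DMSO. Among these Gm42418 libraries changed signs were Mertk 0.025 and Pros1 -0.40 by pre-treatment on day 8, Pros1 -0.090 by age in DMSO. With both day 8 groups short of library 1, 1 passed by pre-treatment on day 14 and by age averaged, where 17.6% and 6.5% of all genes passed. In that fit 0 passed by age in DMSO and by age in GSK, where 0.85% and 1.46% of all genes passed. Without these 2 libraries changed signs were Gas6 0.69, Mfge8 -0.23 and Stab1 -0.20 by pre-treatment on day 8, Mertk 0.0076, Gas6 -0.26 and Pros1 -0.19 for the difference of pre-treatment effects between days, Gas6 0.12 by age in DMSO, Gas6 -0.14 and Mfge8 0.011 by age in GSK, Gas6 -0.010 by age averaged. With the pan-macrophage mean, added after the data were seen, 0 passed by pre-treatment averaged, by age in DMSO, by age in GSK and by age averaged. Of all genes 6.03%, 0.345%, 0.0337% and 0.261% passed there, in the same order. The pan-macrophage covariate changed the signs of Pros1 -0.18 for the difference of pre-treatment effects between days, Pros1 -0.049 by age in DMSO, Pros1 -0.23 and Mfge8 0.057 by age in GSK, Gas6 -0.10 and Pros1 -0.14 by age averaged.

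Leaving out 1 library at a time by pre-treatment on day 8 gave Gas6 -0.56 to 0.40, Pros1 -0.089 to 0.41, Mfge8 -0.27 to 0.27 and Stab1 -0.10 to 0.13. By pre-treatment on day 14 it gave the count of members 0 to 1, Gas6 -0.057 to 0.64 and Gas6 minus Pros1 -0.43 to 0.40. By pre-treatment averaged it gave the count of members 0 to 1 and Gas6 -0.080 to 0.42. For the difference of pre-treatment effects between days it gave Mertk -0.063 to 0.050, Pros1 -0.12 to 0.38 and Msr1 -0.067 to 0.13. By age in DMSO it gave the count of members 0 to 2, Gas6 -0.62 to 0.32, Msr1 -0.00077 to 0.19 and Gas6 minus Pros1 -0.64 to 0.27. By age in GSK it gave the count of members 0 to 1, Gas6 -0.14 to 0.65, Mfge8 -0.53 to 0.011 and Gas6 minus Pros1 -0.15 to 0.38. By age averaged it gave the count of members 1 to 2 and Gas6 -0.15 to 0.34. Same-numbered libraries did not deviate together (correlations from -0.34 to 0.17, and 5 of 14 libraries correlated best with their own number), so the block by replicate number is not a pairing; with it Axl was 0.93 by age in GSK (adjusted p = 0.0521, limma). The Gm42418 libraries held no GSK day 14 library, so comparisons with that group could not be fitted there.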
